A study of Mus musculus with 21 samples.

Results

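The 10 genes described here encode secreted modulators of Wnt signalling: the R-spondins Rspo1, Rspo2, Rspo3 and Rspo4, the Dickkopf family members Dkk2 and Dkk3, and the secreted frizzled-related proteins Sfrp1, Sfrp2, Sfrp4 and Sfrp5. They were chosen by gene symbol from the 24062 genes of the deposited count table, and all 10 were found there. RNA was sequenced from the colon of C57BL/6 mice in 21 libraries, 3 in each of 7 groups. Wild-type males, wild-type females and males with the App NL-G-F knock-in each gave normal colon and tumours, and knock-in females gave normal colon. App NL-G-F places mutations known from familial Alzheimer's disease in the mouse App locus, which encodes the amyloid precursor protein. Tumours came from mice given AOM/DSS, in which the carcinogen azoxymethane is followed by dextran sulfate sodium, an agent that damages the gut epithelium. Normal libraries are labelled as untreated, whereas the text of the series speaks of tissue beside tumours, or of colon without tumours, and the treatment of the normal libraries is uncertain. The labels give neither age nor whether libraries of a group came from separate animals, so p-values measure the spread between these libraries. The question behind the series is how mutant App changes what AOM/DSS does to the colon.

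In the canonical Wnt pathway, Wnt ligands bind Frizzled receptors and the co-receptors Lrp5 and Lrp6, and beta-catenin then activates target genes such as Axin2. R-spondins bind Lgr4, Lgr5 and Lgr6 and remove the ubiquitin ligases Rnf43 and Znrf3, which would otherwise clear Frizzled from the cell surface, so they strengthen a Wnt signal. Secreted frizzled-related proteins carry a Frizzled-like domain that can bind Wnt ligands, and Dickkopf proteins of the Dkk2 type bind Lrp5 and Lrp6. In the colon, R-spondins and several frizzled-related proteins are known mainly from stromal cells around the crypts, where they shape the stem cell zone.

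Of the 10 genes, 8 passed the filter on low counts and were tested, while Rspo2 and Rspo4 did not. Rspo2 had at most 10 counts in any library and was at or under the floor of 3 counts in 18 of 21. Rspo4 had at most 20 counts and was at or under that floor in 15. Compared per length of their exons, Dkk3 had the highest mean level over the 21 libraries, at 21.4 CPM (counts scaled to library size) per kilobase, followed by Dkk2 at 12.1, Sfrp1 at 7.41 and Sfrp2 at 4.37. Rspo3 lay at 1.49 CPM per kilobase, Sfrp4 at 0.843, Sfrp5 at 0.542 and Rspo1 at 0.256. Among R-spondins, Rspo3 therefore had the highest level, and Rspo4 at 0.110 and Rspo2 at 0.0216 CPM per kilobase had the lowest. All levels given below without a length are CPM on TMM-scaled library sizes.

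In the GENCODE annotation of GRCm38, Dkk2 lies on chromosome 3 from 132085292 to 132180304, Dkk3 on chromosome 7 from 112116017 to 112159057, and Rspo3 on chromosome 10 from 29452416 to 29535867. Sfrp1 lies on chromosome 8 from 23411502 to 23449632, Sfrp2 on chromosome 3 from 83766321 to 83774316, and Sfrp4 on chromosome 13 from 19623104 to 19632994. Rspo1, Rspo3, Rspo4 and Sfrp2 overlap other annotated genes (Gm12930, Gm20276 and Gm48159, Rspo4os, and Gm26771) that are not in the count table. These are overlaps of whole gene spans, and overlap of exons was not checked. The strand setting of the counting is not given in the sources used here, and Gm20276 lies on the same strand as Rspo3. Whether reads from those neighbours were counted is therefore uncertain.

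RefSeq promoters on GRCm38.p6 were matched by symbol for 5 of the 10 genes, Rspo1, Rspo4, Dkk2, Sfrp2 and Sfrp5. The 250 bases before the start are shown for Dkk2, the gene with the largest rise in tumours, and for Sfrp2, the 1 gene whose tumour effect passed the edgeR test of a difference between the sexes, a call lost in 3 of the alternative fits given with its values. Both genes are on the plus strand, with the Dkk2 stretch at chr3:132085042-132085291 and the Sfrp2 stretch at chr3:83766071-83766320. Capitals mark a TATAAA match, which begins 32 bases before the start of Dkk2.
Dkk2: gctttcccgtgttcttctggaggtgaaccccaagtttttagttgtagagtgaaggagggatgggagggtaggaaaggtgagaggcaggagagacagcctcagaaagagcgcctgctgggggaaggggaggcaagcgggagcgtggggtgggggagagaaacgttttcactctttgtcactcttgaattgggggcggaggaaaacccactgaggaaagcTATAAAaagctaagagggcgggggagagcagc
Sfrp2: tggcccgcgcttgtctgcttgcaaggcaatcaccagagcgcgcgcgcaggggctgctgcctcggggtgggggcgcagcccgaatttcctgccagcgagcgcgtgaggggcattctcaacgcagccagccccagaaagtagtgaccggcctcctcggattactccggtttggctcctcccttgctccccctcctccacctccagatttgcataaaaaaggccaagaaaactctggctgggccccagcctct
The motifs searched, on both strands, were CTTTGA (a core of the TCF/LEF site, through which beta-catenin acts), TATAAA and the CArG box of serum response factor. CTTTGA was found in 0 of the 5 promoters and in 16% of 32851 promoters of the same 300 bases. TATAAA was found in 1 of the 5, that of Dkk2, and in 13.6% of all promoters. The CArG box was found in 0 of the 5 and in 1.63% of all. The Dkk2 window held 11 CpG dinucleotides and that of Sfrp2 held 22, beside a median of 7 over all promoters. Rspo1 had 29, Rspo4 had 31 and Sfrp5 had 15.

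Library totals ran from 3414123 counts in wild-type male tumour replicate 2 to 26174008 in wild-type female normal replicate 1. The summed level of 8 epithelial genes (among them Epcam, Cdh1 and Vil1) lay between 4624 and 8457 CPM in every library. With no other tissue to compare, this shows epithelial RNA and does not check the colon label. Smooth muscle genes differed with tissue. Their summed level was 3248 to 10882 CPM in wild-type male normal colon and 338 to 987 CPM in the tumours, 5225 to 9158 against 1050 to 1280 CPM in males with the knock-in, and 2229 to 5136 against 270 to 327 CPM in wild-type females. Each of the 10 was lower in the 3 tumour comparisons. In bulk tissue, fewer cells of a type and less RNA per cell cannot be told apart.

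**Figure D1:**
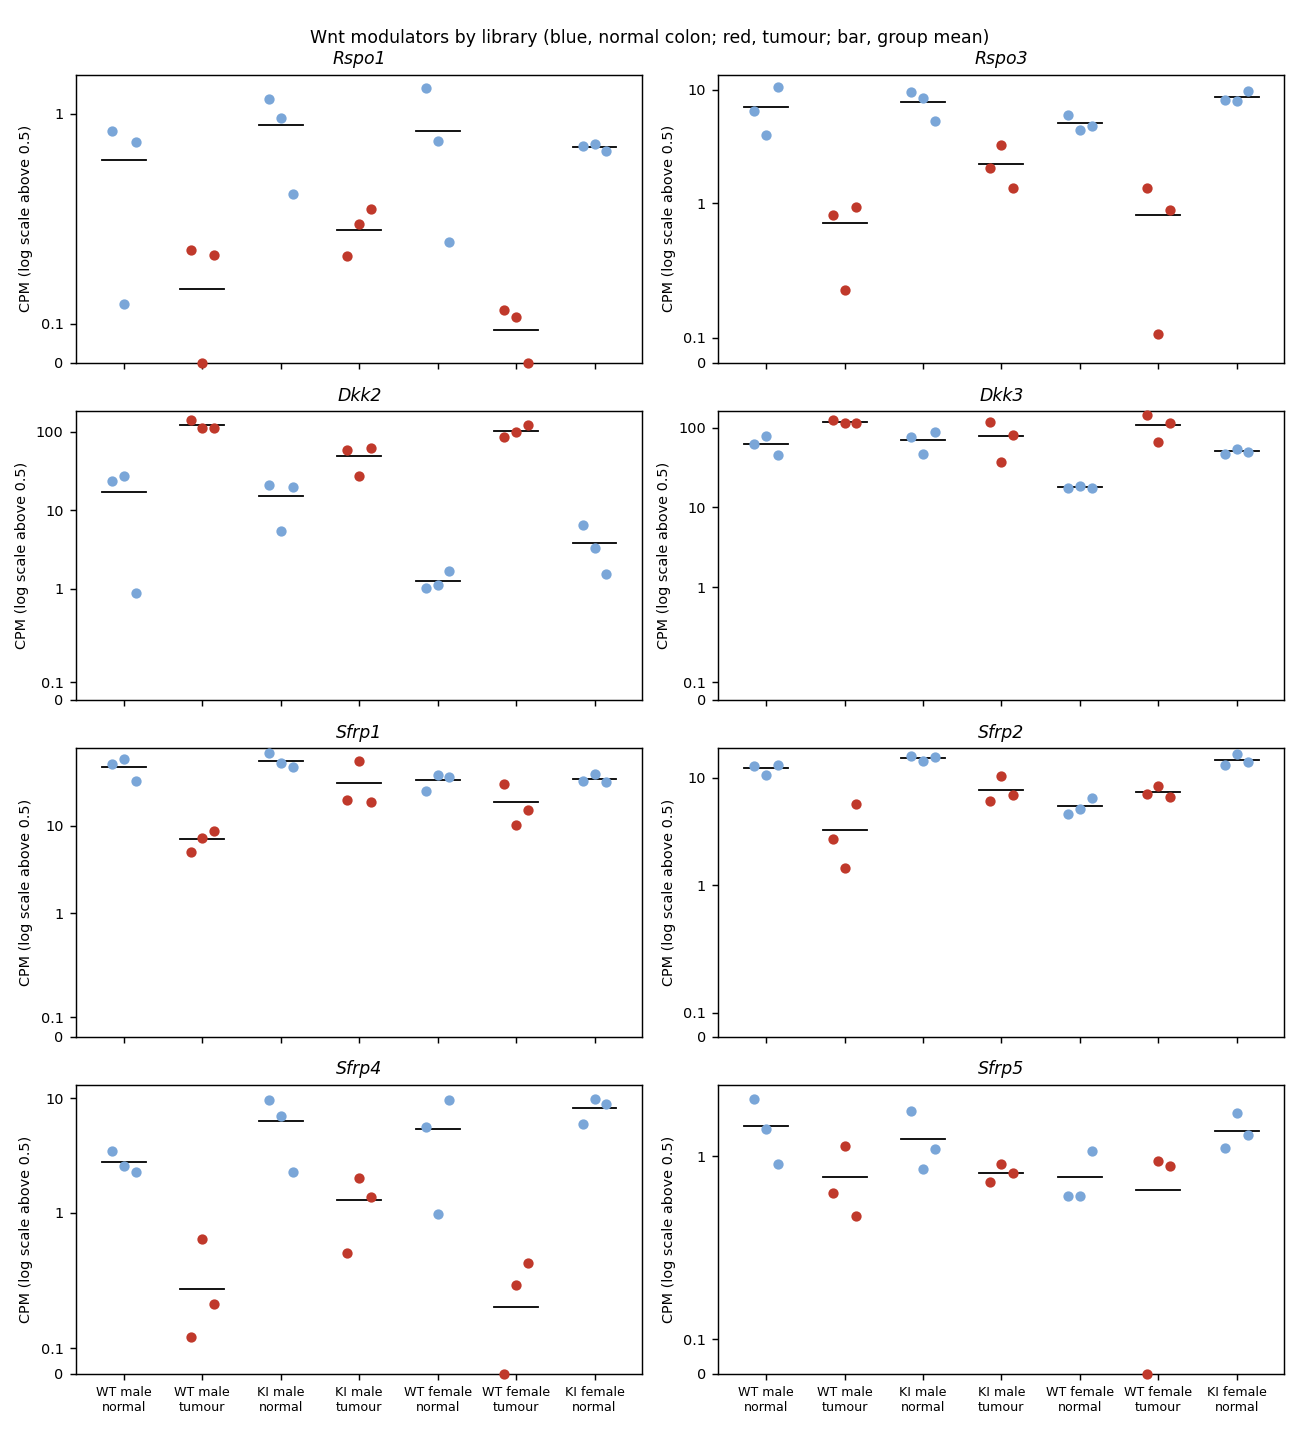
Level of the 8 tested genes in each of the 21 libraries, in CPM (vertical axis, linear below 0.5 and logarithmic above), by group; points are libraries and bars are group means of 3. Rspo3 and Sfrp4 lie lower in tumours than in the matching normal colon, and Dkk2 lies higher, in each of the 3 settings with tumours.

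Tumours and normal colon were compared within each sex and genotype. In the fit of all 21 libraries, Rspo3 and Sfrp4 fell in the tumours of all 3 settings. Dkk2 and Dkk3 rose in wild-type tumours of both sexes, and neither passed the test in knock-in males. Sfrp1 fell in wild-type males, Sfrp2 in males of both genotypes, and Rspo1 in wild-type females. In wild-type males 2 of the 8 tested genes were higher and 4 lower, beside 16.5% of 15936 tested genes higher and 19.3% lower. In knock-in males edgeR called 0 higher and 3 lower, beside 10.4% higher and 9.97% lower. At an unadjusted p under 0.05 were 5 of the 8, beside 5716 of all 15936 tested genes. DESeq2 also called 3, beside 24% of all. In wild-type females 2 were higher and 3 lower, beside 25% higher and 24% lower. The median log2 fold change of the 8 genes was -1.56, -0.90 and -0.50 in these 3 comparisons, and that of all tested genes was 0.01 in each.

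Rspo3, the main R-spondin of the colon stroma, had 6.47, 3.97 and 10.6 CPM in wild-type male normal colon and 0.792, 0.291 and 0.920 CPM in the tumours. The groups did not overlap, and Rspo3 fell by 3.20 on the log2 scale (SE 0.52, edgeR adjusted p = 0.00016). In knock-in males it had 9.53, 8.48 and 5.27 CPM in normal colon and 2.04, 3.25 and 1.37 CPM in tumours, again without overlap. Here it fell by 1.78 (SE 0.44, edgeR adjusted p = 0.0106). Among wild-type females the values were 6.04, 4.46 and 4.80 CPM in normal colon and 1.36, 0.117 and 0.869 CPM in tumours, a fall by 2.73 (SE 0.52, edgeR adjusted p = 0.000277). Tumour replicate 2 rested on 1 count of Rspo3 in both wild-type sexes.

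Rspo1, another ligand of the Lgr receptors, was low throughout, with at most 33 counts in a library. In wild-type females it had 1.39, 0.696 and 0.310 CPM in normal colon, and its tumours had 1, 1 and 0 counts. Summed over libraries, 2 counts in tumours stood against 40 in normal colon, a ratio of 0.0743 with an exact 95% interval of 0.00869 to 0.286 that covers counting error only. The test was passed (edgeR adjusted p = 0.00411) and was lost without normal replicate 1, at an adjusted p of 0.0558. Rspo1 did not pass the low-count filter in a fit of these 2 groups alone, so the call could not be checked there. In males the log2 fold changes of Rspo1 were -1.20 (SE 0.73, edgeR adjusted p = 0.214) in wild-type and -1.34 (SE 0.63, edgeR adjusted p = 0.137) in knock-in. Rspo2 had 12 counts in all in wild-type male normal colon, 10 of them in replicate 1, and 1 in the tumours. The groups overlapped, and in the fit without a low-count filter its edgeR adjusted p was 0.165. Rspo4 had 1 count in wild-type female normal colon and 15 in the tumours, with 4, 2 and 9 counts per library, and the groups did not overlap. The summed ratio was 22.3 with an exact interval of 3.43 to 938 that covers counting error only. In the unfiltered fit Rspo4 had an edgeR adjusted p of 0.0274. Wild-type males went the other way, with 3 counts in tumours and 15 in normal colon (edgeR adjusted p = 0.466 in that fit). Knock-in males had 25 counts in tumours, 20 of them in replicate 2, and 6 in normal colon (edgeR adjusted p = 0.283).

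Dkk2, a Dickkopf protein that binds Lrp5 and Lrp6, had 23.7, 27.5 and 0.895 CPM in wild-type male normal colon and 142, 113 and 112 CPM in the tumours. The groups did not overlap, and replicate 3 of the normal colon stood far below the other two with 9 counts. Dkk2 rose by 2.79 on the log2 scale (SE 0.72, edgeR adjusted p = 0.00773), and by 2.26 without that replicate. In wild-type females it had 1.01, 1.11 and 1.70 CPM in normal colon and 87.3, 101 and 121 CPM in tumours. This rise of 6.42 (SE 0.96, edgeR adjusted p = 5.92e-05) was the largest log2 fold change of the 8 genes in any of the 3 tumour comparisons. In knock-in males Dkk2 had 21.1, 5.44 and 19.7 CPM in normal colon and 59.4, 27.7 and 61.7 CPM in tumours. The groups did not overlap there either, but the log2 fold change of 1.70 (SE 0.71) missed the threshold (edgeR adjusted p = 0.0988).

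Dkk3, a divergent member of the Dickkopf family, had 62.3, 78.6 and 45.2 CPM in wild-type male normal colon and 126, 115 and 113 CPM in the tumours. It rose by 0.93 (SE 0.33, edgeR adjusted p = 0.0397), without overlap. With the replicate number as a block the adjusted p was 0.0652, and it lay between 0.0690 and 0.164 in 5 of the 6 fits that left out 1 library. In wild-type females Dkk3 had 17.3, 18.8 and 17.3 CPM in normal colon and 143, 66.9 and 114 CPM in tumours, a rise of 2.60 (SE 0.36, edgeR adjusted p = 1.94e-05). Knock-in males differed by 0.15 (SE 0.33, edgeR adjusted p = 0.775), with tumours at 117, 36.6 and 80.6 CPM around normal colon at 76.0, 47.2 and 87.3 CPM.

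Sfrp1, a frizzled-related protein known for binding Wnt ligands, had 50.9, 58.3 and 32.1 CPM in wild-type male normal colon and 4.97, 7.27 and 8.74 CPM in the tumours. It fell by 2.77 (SE 0.45, edgeR adjusted p = 0.000226), and the groups were far apart. In knock-in males it had 67.2, 52.0 and 47.3 CPM in normal colon and 19.9, 54.7 and 18.9 CPM in tumours. Tumour replicate 2 thus lay within the normal range, and the log2 fold change of -0.83 (SE 0.39) missed the threshold (edgeR adjusted p = 0.143). Without that library it was -1.55 (edgeR adjusted p = 0.0158). Among wild-type females Sfrp1 had 25.0, 38.3 and 35.9 CPM in normal colon and 30.0, 10.2 and 15.3 CPM in tumours, which gave -0.84 on the log2 scale (SE 0.41, edgeR adjusted p = 0.103). Leaving out tumour replicate 1 gave -1.36 (edgeR adjusted p = 0.0167).

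Sfrp2, a frizzled-related protein of fibroblasts, had 13.0, 10.6 and 13.0 CPM in wild-type male normal colon and 2.66, 1.45 and 5.71 CPM in the tumours. It fell by 1.80 (SE 0.30, edgeR adjusted p = 0.000234). In knock-in males it had 16.1, 14.2 and 15.6 CPM in normal colon and 6.05, 10.4 and 6.85 CPM in tumours, a fall by 0.97 (SE 0.28, edgeR adjusted p = 0.0225). This call was lost in a fit of the 2 groups alone (adjusted p = 0.0571) and without normal replicate 3, tumour replicate 1 or tumour replicate 3. Wild-type females went the other way, with 4.60, 5.15 and 6.50 CPM in normal colon and 7.06, 8.30 and 6.63 CPM in tumours. Tumours differed from normal colon by 0.45 there (SE 0.30, edgeR adjusted p = 0.221).

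The difference between the tumour effects of wild-type females and males was tested as an interaction, and Sfrp2 passed it with 2.25 on the log2 scale (SE 0.43, edgeR adjusted p = 0.0172). It was the 1 of the 8 tested genes to pass, beside 1.12% of all tested genes. The adjusted p was 0.0621 with a covariate for the 3 libraries whose library number, which is not the replicate number, is 152 or more. It was 0.0609 without wild-type female normal replicate 1 and 0.0555 without wild-type male tumour replicate 1. Of the 8 genes 4 had an unadjusted p under 0.05, beside 2199 of all 15936 tested genes. For Dkk2 the interaction was 3.63 (SE 1.2, edgeR adjusted p = 0.153), for Dkk3 it was 1.67 (SE 0.48, edgeR adjusted p = 0.100) and for Sfrp1 it was 1.93 (SE 0.60, edgeR adjusted p = 0.133). DESeq2 called these 3 and Sfrp2, beside 3.62% of all. In the same test between knock-in and wild-type males, 0 of the 8 genes passed, beside 1.51% of all. An unadjusted p under 0.05 was reached by 2, beside 4023 of the 15936. Sfrp1 came nearest at 1.94 (SE 0.59, edgeR adjusted p = 0.0751), and DESeq2 called it, beside 8.32% of all.

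Sfrp4, another frizzled-related protein, had 3.49, 2.54 and 2.29 CPM in wild-type male normal colon, and its tumours had 2, 2 and 3 counts. The summed counts of 7 and 131 gave a ratio of 0.0845 with an exact interval of 0.0333 to 0.179 that covers counting error only, and the test was passed (edgeR adjusted p = 0.00732). Without tumour replicate 1 the adjusted p was 0.0518. In knock-in males Sfrp4 had 9.62, 7.02 and 2.25 CPM in normal colon and 0.476, 2.01 and 1.37 CPM in tumours, a fall by 2.28 (SE 0.67, edgeR adjusted p = 0.0238). That call was lost in a fit of the 2 groups alone (adjusted p = 0.0809) and without normal replicate 1, tumour replicate 1 or tumour replicate 3. In wild-type females 5.62, 0.975 and 9.75 CPM stood against 0, 0.351 and 0.435 CPM, a fall by 4.25 (SE 0.86, edgeR adjusted p = 0.000534). Sfrp4 did not pass the low-count filter in a fit of these 2 groups alone, so that call could not be checked there. Sfrp5, which is low in the colon, ranged from 0 to 2.36 CPM and passed the edgeR test in 0 of the 12 comparisons, and DESeq2 called it in none of those for which it gave an adjusted p. Its smallest unadjusted p was 0.0483, for wild-type male tumours.

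**Figure D2:**
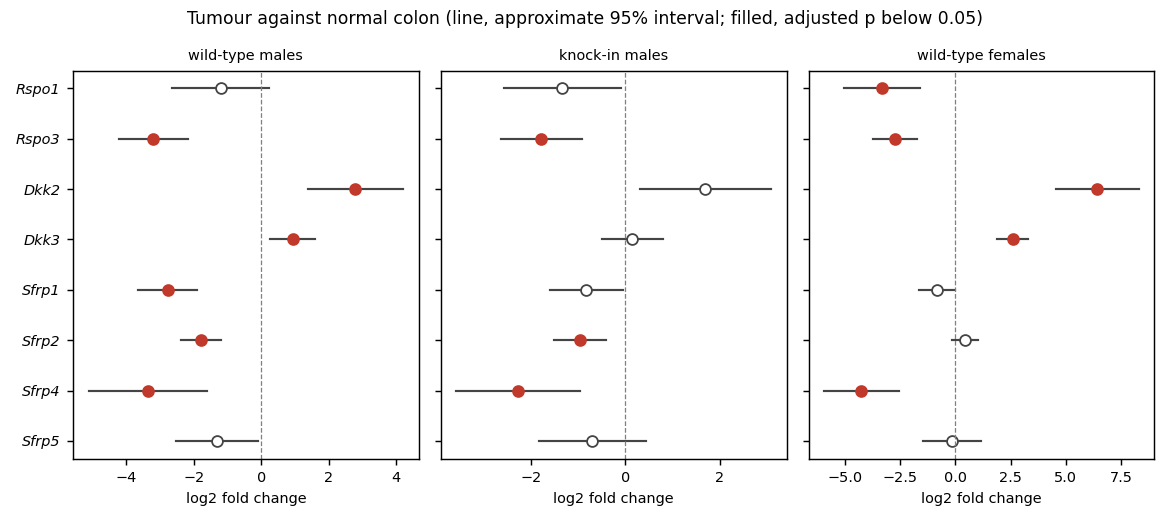
Log2 fold change of tumour against normal colon (horizontal axis, scaled separately in each panel) for the 8 tested genes; lines are approximate 95% intervals and filled points passed edgeR's test at an adjusted p below 0.05. Rspo3 and Sfrp4 are filled to the left of 0 in each panel, and Dkk2 lies to the right of 0 in each panel, filled in the wild-type panels.

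Other genes of the pathway moved in these tumours as well. All 16 Wnt target genes rose in wild-type females, 14 of 16 in wild-type males and 4 of 16 in males with the knock-in, and none fell. Sp5, a transcription factor induced by Wnt signals, rose in wild-type females by 6.66 (SE 1.1, edgeR adjusted p = 0.00016) and in wild-type males by 2.40 (SE 0.78, edgeR adjusted p = 0.0269). Of the 5 R-spondin receptors and ligases, 4 rose in wild-type females, among them Lgr6 by 5.69 and Lgr5, the stem cell marker, by 4.15, while Lgr4 was the 1 that fell. In wild-type males 3 rose (Lgr6, Rnf43 and Znrf3) and Lgr4 fell by 1.05, and in knock-in males edgeR called 0 of 5, with 3 at an unadjusted p under 0.05. Of the other secreted Wnt antagonists, 6 of 11 were tested. In wild-type females 4 of them rose, with Notum, an enzyme that inactivates Wnt ligands, at 6.37 and Wif1, a Wnt-binding inhibitor, at 5.97. In wild-type males Igfbp4 rose by 1.05 and Frzb fell by 0.82, and 4 of 6 had an unadjusted p under 0.05. Notum and Wif1 missed the threshold there, though their groups did not overlap. Notum had 9.54 to 90.3 CPM in wild-type male normal colon and 254 to 274 CPM in tumours. Wif1 had 12.0 to 147 CPM against 328 to 452 CPM. In knock-in males edgeR called 0 of 6, with 1 at an unadjusted p under 0.05. Lgr5 and Rnf43 overlap genes that are in the count table (A930009A15Rik and 1110028F11Rik), and Notum, Fzd5 and Axin2 overlap annotated genes that are not. Exon overlap was not checked, the strand setting is not given, and 1110028F11Rik lies on the same strand as Rnf43, so these counts are uncertain.

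Receptors showed no single direction. Of 10 Frizzled genes, 1 rose and 4 fell in wild-type males, 1 rose and 1 fell in males with the knock-in, and 5 rose and 2 fell in wild-type females. Fzd10 rose by 2.47 in wild-type males and by 3.64 in wild-type females, and Fzd5 fell in each of the 3 comparisons, by 1.32, 0.60 and 1.49. Of the 5 LRP and Kremen genes, 2 rose and 2 fell in wild-type males, edgeR called 0 in males with the knock-in (1 at an unadjusted p under 0.05), and 3 rose and 2 fell in wild-type females.

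Markers of stromal cells moved alongside. Of 8 genes of pericryptal fibroblasts positive for CD81 or CD34, cells known as a source of R-spondins, 6 fell in tumours of wild-type males, 5 in those of knock-in males and 4 in those of wild-type females, where 1 rose. Among them Pi16 fell by 3.55, 2.04 and 2.66 in that order. The summed level of the list was 432 to 617 CPM in wild-type male normal colon and 367 to 386 CPM in tumours, 548 to 751 against 335 to 530 CPM in males with the knock-in, and 462 to 481 against 336 to 418 CPM in wild-type females. Of 7 subepithelial telocyte genes, 4 rose in wild-type males, 2 in males with the knock-in and 7 in wild-type females, where their sum was 106 to 118 CPM in normal colon and 361 to 432 CPM in tumours. Enteric glia genes were lower for 4, 2 and 2 of 5 in that order, enteric neuron genes for 5, 4 and 5 of 8 (with 1 higher in wild-type females), and those of interstitial cells of Cajal for 2, 1 and 2 of 2. Of 8 epithelial genes 7 fell and 1 rose in both wild-type comparisons, and 1 fell and 1 rose in males with the knock-in. Of 8 general fibroblast genes, 2 were lower in wild-type males, 1 was higher in males with the knock-in, and 5 were higher and 1 lower in wild-type females. The part of these marker changes, and of the smooth muscle genes, in the values of the Wnt modulators was not tested.

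**Figure D3:**
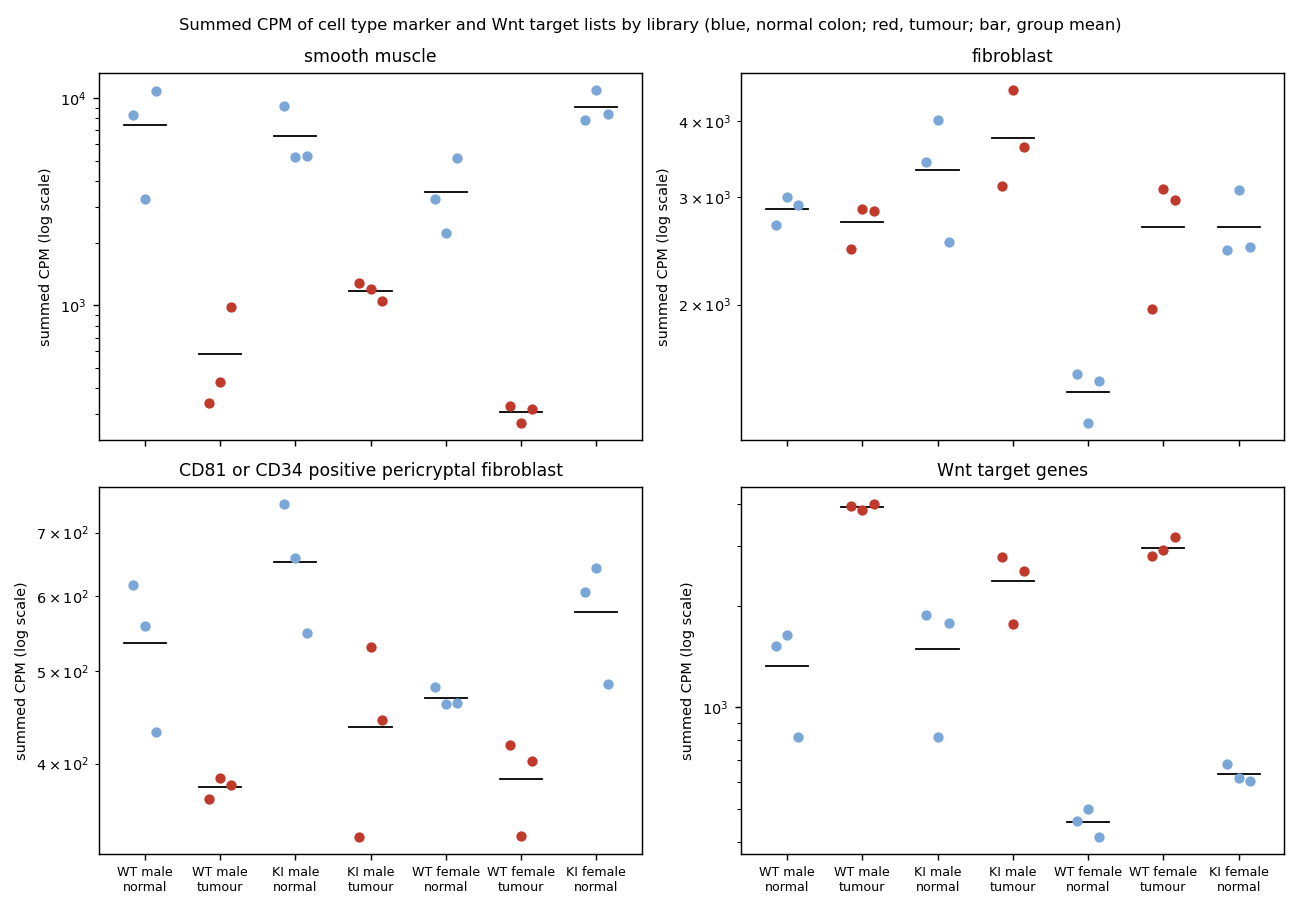
Summed CPM (vertical axis, logarithmic) of the smooth muscle, fibroblast, pericryptal fibroblast and Wnt target lists in each of the 21 libraries, by group; points are libraries and bars are group means of 3. Smooth muscle sums are lower in tumours. Wnt target sums are higher in wild-type tumours and overlap in knock-in males, where tumour replicate 2 is at 1766 CPM and normal colon reaches 1872 CPM, and wild-type female normal colon has the lowest fibroblast sums, at 1276 to 1539 CPM.

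Genotypes were compared in male tumours first. Sfrp1 and Sfrp2 were higher in knock-in tumours, and 2 of the 8 tested genes passed, beside 14.5% of all tested genes. Sfrp1 had 19.9, 54.7 and 18.9 CPM in knock-in tumours and 4.97, 7.27 and 8.74 CPM in wild-type tumours, a difference of 2.18 on the log2 scale (SE 0.44, edgeR adjusted p = 0.00895). It was 1.46 without knock-in tumour replicate 2 (edgeR adjusted p = 0.0475). Sfrp2 was higher by 1.15 (SE 0.30, edgeR adjusted p = 0.0219), a call lost in a fit of the 2 groups alone (adjusted p = 0.133) and without knock-in tumour replicate 2, wild-type tumour replicate 1 or wild-type tumour replicate 2. Rspo3 did not overlap between the genotypes, but its difference of 1.57 (SE 0.53) missed the threshold (edgeR adjusted p = 0.0513). Dkk2 did not overlap either and was lower in the knock-in by 1.31 (SE 0.68, edgeR adjusted p = 0.198).

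Knock-in tumour replicate 2 stood apart within its group. It had the highest Sfrp1, Sfrp2, Sfrp4 and Rspo3 and the lowest Dkk2 and Dkk3 of the 3 knock-in tumours, and its Wnt target sum was 1766 CPM beside 2778 and 2535 CPM. The Wnt target sums of wild-type male tumours were 3831 to 4009 CPM, above those of every knock-in tumour, and of the 16 genes Bambi and Myc were lower in the knock-in. Smooth muscle sums of 1050 to 1280 CPM in knock-in tumours lay above the 338 to 987 CPM of wild-type tumours. Of the 10 smooth muscle genes 0 passed the edgeR threshold. An unadjusted p under 0.05 was reached by 7, beside 5201 of the 15936 tested genes. Of the 8 pericryptal fibroblast genes, 3 were higher in knock-in tumours, including Grem1 by 1.58, a BMP antagonist of those cells. The part of these differences in the Sfrp values was not tested.

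In male normal colon, edgeR called 0 of the 8 genes between genotypes, beside 0.0126% of all, and DESeq2 called 0, beside 0.0377%. An unadjusted p under 0.05 was reached by 0 of the 8, beside 533 of the 15936 tested genes. The log2 differences ran from -0.33 for Sfrp5 to 1.17 for Sfrp4, whose SE was 0.63. In female normal colon Dkk3 and Sfrp2 were higher in the knock-in, 2 of 8 genes beside 16% of all. Dkk3 had 46.6, 54.1 and 49.9 CPM in the knock-in and 17.3, 18.8 and 17.3 CPM in the wild type, a difference of 1.50 (SE 0.35, edgeR adjusted p = 0.00945). Sfrp2 had 13.3, 16.6 and 13.9 CPM against 4.60, 5.15 and 6.50 CPM, a difference of 1.44 (SE 0.29, edgeR adjusted p = 0.00339). Both pairs of groups were apart. Cell markers moved in the same comparison: 5 of 8 fibroblast, 5 of 10 smooth muscle, 4 of 6 endothelial, 3 of 7 telocyte and 2 of 8 pericryptal fibroblast genes were higher in the knock-in, and 4 of 5 mesothelial and 2 of 8 epithelial genes were lower. Fibroblast sums were 2456 to 3090 CPM in the knock-in and 1276 to 1539 CPM in the wild type, and smooth muscle sums were 7838 to 10979 against 2229 to 5136 CPM. Their part in the Dkk3 and Sfrp2 differences was not tested. Tested as an interaction of genotype and sex, 0 of 8 passed, beside 2.54% of all. An unadjusted p under 0.05 was reached by 2, beside 2829 of the 15936 tested genes. The interaction of Sfrp2 was 1.12 (SE 0.40, edgeR adjusted p = 0.146), which DESeq2 called, beside 5.77% of all. That of Dkk3 was 1.32 (SE 0.48, edgeR adjusted p = 0.157).

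Between the sexes, wild-type normal colon differed in Dkk2, Dkk3 and Sfrp2, which were lower in females: 3 of 8 genes, beside 15.9% of all. The differences were -3.88 for Dkk2 (SE 0.94, edgeR adjusted p = 0.0125), -1.80 for Dkk3 (SE 0.35, edgeR adjusted p = 0.00291) and -1.19 for Sfrp2 (SE 0.29, edgeR adjusted p = 0.0109). For Dkk2 the groups overlapped, since male replicate 3 had 0.895 CPM and the females had 1.01 to 1.70 CPM. The Dkk2 and Sfrp2 calls were lost without female replicate 1 (adjusted p = 0.0723 and 0.0622) and without female replicate 2 (0.0565 and 0.0505). Wild-type female normal colon was also low in other lists: 14 of 16 Wnt target genes, 5 of 8 fibroblast genes and 3 of 10 smooth muscle genes were lower than in males. So were 5 of 6 endothelial genes, 4 of 7 telocyte genes, 4 of 5 R-spondin receptors and ligases, and 4 of 6 other secreted Wnt antagonists. Of 5 mesothelial genes, 2 were higher in females. The summed epithelial level of wild-type female normal colon was 7847 to 8457 CPM beside 6140 to 8193 CPM in males. The part of these differences was not tested.

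In knock-in normal colon edgeR called 0 of 8 genes between the sexes, beside 0.584% of all, and DESeq2 called 0, beside 3.66%. An unadjusted p under 0.05 was reached by 1 of 8, beside 2432 of the 15936 tested genes. In wild-type tumours edgeR called 0 of 8, beside 0.86% of all, and 2 had an unadjusted p under 0.05, beside 3350 of the 15936. The 2 were Sfrp1, higher in females by 1.41 (SE 0.45, edgeR adjusted p = 0.100), and Sfrp2, higher by 1.06 (SE 0.31, edgeR adjusted p = 0.0776). Neither overlapped between the sexes. DESeq2 called both, beside 5.24% of all. Dkk2 in tumours was 87.3 to 121 CPM in females and 112 to 142 CPM in males, a difference of -0.25 with an approximate 95% interval of -1.56 to 1.07.

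**Figure D4:**
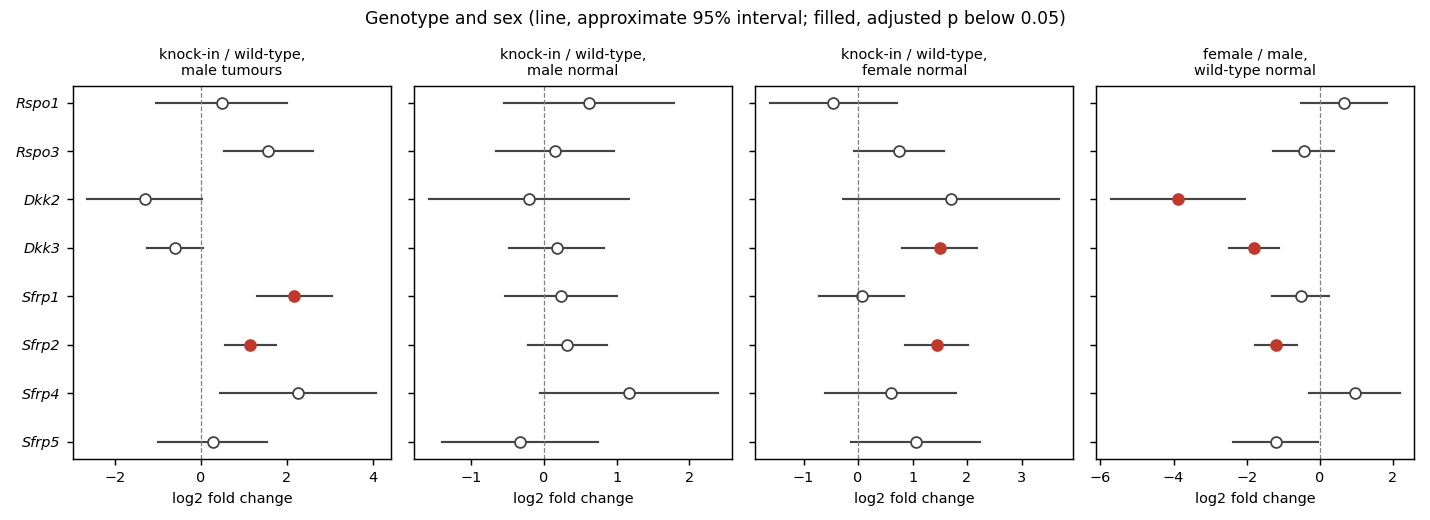
Log2 fold change (horizontal axis, scaled separately in each panel) of the 8 tested genes between genotypes in 3 tissues and between sexes in wild-type normal colon; lines are approximate 95% intervals and filled points passed edgeR's test at an adjusted p below 0.05. Sfrp1 and Sfrp2 are filled in male tumours, none in male normal colon, Dkk3 and Sfrp2 in female normal colon, and Dkk2, Dkk3 and Sfrp2 between the sexes.

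Among normal libraries, those with low Dkk2 also had low Wnt target sums. Wild-type male normal replicate 3, with Dkk2 at 0.895 CPM, had a Wnt target sum of 818 CPM beside 1524 and 1635 CPM in the other replicates. Knock-in male normal replicate 2, with Dkk2 at 5.44 CPM, had a sum of 816 CPM beside 1872 and 1776 CPM. In wild-type female normal colon the sums were 413 to 499 CPM, and in knock-in females 604 to 679 CPM. Axin2 was at 81.9 CPM in that wild-type male replicate beside 223 and 220 CPM in the others. These values are a description and were not tested.

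The genes most like 7 of the 8 in pattern were found by the root mean square difference of centred log2 CPM over the 21 libraries. For Dkk2 they were Sox11 (0.51 log2 units), Adcy8 (0.52) and Stra6 (0.58), against a spread of Dkk2 itself of 2.53 (SD). For Sfrp1 they were Grem1 (0.41), Lama2 (0.52) and Slit3 (0.54), with a spread of 1.05. Dkk3 was closest to Sepn1 (0.29), Ptprs and Fbxo10, Sfrp2 to Prelp (0.41), Gli2 and Rgma, and Sfrp4 to Art3 (0.67), Fmo1 and Trpc4. Rspo1 was closest to Ebpl (0.48), Emilin3 and 4930429F24Rik, and Sfrp5 to 9530077C05Rik (0.41), Trabd2b and Tmem252, but for these low genes the spread over libraries was 0.90 and 0.82, little above the spread within groups of 0.64 and 0.74.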

How the data were processed

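Total RNA from mouse colon was depleted of ribosomal RNA and reverse transcribed with random hexamers, per the labels' protocols. The deposited values are raw counts per gene, which the authors made with featureCounts, per the file name. Trimmomatic, HISAT2, featureCounts, DESeq2 and the build mm10 are named in the submitters' processing notes, and their versions, the annotation and the strand setting are not given in the sources used here. The authors' own DESeq2 table was not used. Groups and replicate numbers came from the labels. In the count table, 2 knock-in female normal columns share a header and were used as unnumbered replicates.

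The 10 genes and the lists were chosen with earlier results of these data known. edgeR's quasi-likelihood F test (two-sided, TMM, filterByExpr by group, robust) was fitted once on all 21 libraries and 15936 genes, with Benjamini-Hochberg adjustment over these genes and a threshold of 0.05, for 9 pairs of groups and 3 interactions. Standard errors came from the fold change and F, and intervals are normal approximations at 95%. Log2 CPM used a prior count of 2, and 3 counts was the floor. Named genes were the 10, at most 4 per list and comparison by size among those past the threshold, and the 3 most alike to each tested gene. Axin2 among normal libraries, Lgr4 in wild-type females, and Notum and Wif1 in wild-type males were named after their values were seen. Exon lengths were the union of GENCODE M21 exons. The tests were checked on simulated counts. Software was edgeR 4.0.16 with limma 3.58.1, and DESeq2 1.42.0, under R 4.3.3; promoters and figures used Python 3.11.15.

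Same-numbered wild-type male tumour and normal libraries deviated together from their group means, with correlations of 0.17, 0.17 and 0.21 over genes. The main fit nonetheless treated them as unpaired. Only the replicate block used these replicate numbers, as a single factor shared by the 18 libraries of that fit. The labels do not say what a number stands for. In the other comparisons the correlations ran from -0.30, for pair 1 of knock-in male tumour and normal colon, to 0.46. That highest value was for pair 1 of knock-in and wild-type male normal colon, and pair 1 of female and male knock-in normal colon had 0.34. Correlations above those of the wild-type male pairs thus occurred between libraries of different genotype or sex. No replicate pair of a group agreed within sampling noise (chi-square per degree of freedom 6.6 to 63.4). Alternatives were DESeq2 size factors, no low-count filter, the DESeq2 Wald test, only the compared groups, and the replicate block on 18 libraries. Others were a covariate for the 3 libraries whose library number is 152 or more, the omission of each replicate, and the promoter bases before the start site. The genes most like Rspo3 in pattern are not reported here.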

Additional observations from a re-analysis of the deposited data

Results flagged for a closer look

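The tumour effect of Sfrp2 passed the test of a difference between the sexes. The log2 fold change of tumour against normal colon was higher by 2.25 in wild-type females than in wild-type males (edgeR adjusted p = 0.0172 for the interaction), with a fall by 1.80 in males and a log2 fold change of 0.45 in females that missed the threshold. The call was lost with the covariate (edgeR adjusted p = 0.0621), without wild-type female normal replicate 1 (0.0609) and without wild-type male tumour replicate 1 (0.0555). Sfrp2 values did not overlap between the wild-type sexes in either tissue. Female normal colon had 4.60 to 6.50 CPM and male normal colon 10.6 to 13.0 CPM, a log2 difference of -1.19. Female tumours had 6.63 to 8.30 CPM and male tumours 1.45 to 5.71 CPM. That difference of 1.06 missed the threshold (edgeR adjusted p = 0.0776).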

How the results depend on the processing

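The values of single genes were recomputed 536 times under settings other than leaving out a library, and 510 kept their direction and their side of the threshold. Of the others, 8 lost the threshold, 14 passed it and 4 changed sign, and 0 of those that changed sign passed the threshold in the new setting. The 4 were Sfrp5 between genotypes in male tumours, at -0.0098 with the covariate, and between the sexes in wild-type tumours Dkk3 at 0.044 with the covariate and Sfrp4 at -0.018 with DESeq2 and at -0.39 with the covariate. The cause was not tested. The replicate block ended the call of Dkk3 in wild-type male tumours (0.87, adjusted p = 0.0652) and changed no other call; it could not be fitted for comparisons with knock-in female normal colon, whose columns carry too few numbers.

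The count of genes past the threshold moved as follows. In fits limited to the groups compared, the filter kept fewer genes. There it was 1 of 7 tested rather than 3 of 8 for tumours of knock-in males (4.72% of all tested genes rather than 20.4%). For tumours of wild-type females, where Rspo1 and Sfrp4 were not tested, it was 3 of 5 rather than 5 of 8 (50% rather than 49.1%). For the interaction of tumour and sex it was 2 of 7 rather than 1 of 8 (1.16% rather than 1.12%). In such fits it was also 5 of 7 rather than 6 for tumours of wild-type males (35.2% rather than 35.7%). Between genotypes in female normal colon it was 3 of 7 rather than 2 (18.8% rather than 16%). Between the sexes in wild-type normal colon it was 2 of 7 rather than 3 (10.9% rather than 15.9%). For the interaction of genotype and sex it was 1 of 8 rather than 0 (1.62% rather than 2.54%). For tumours of wild-type males it was 5 without the low-count filter (25.3% of all) and with the replicate block (33.4%). With DESeq2 it was 3 rather than 2 between genotypes in male tumours (18.6% of all tested genes rather than 14.5%). It was 2 rather than 0 between the sexes in wild-type tumours (5.24% rather than 0.86%). For the interaction of tumour and sex DESeq2 gave 4 rather than 1 (3.62% rather than 1.12%). Both other interactions had 1 rather than 0 with DESeq2. There the shares were 8.32% rather than 1.51% for tumour and genotype, and 5.77% rather than 2.54% for genotype and sex. With the covariate it was 3 between genotypes in male tumours (10.7% of all) and 1 between the sexes in wild-type tumours (1.05%). The covariate left 0 for the interaction of tumour and sex (0.144%). Each library was also left out in turn. The count then ran from 4 to 6 for tumours of wild-type males (22.4% to 33.1% of all tested genes). It ran from 4 to 6 for those of wild-type females (41% to 44.9%) and from 1 to 4 for those of knock-in males (8.6% to 18.5%). Between genotypes in male tumours it ran from 1 to 3 (2.65% to 13.8%). The range was also 1 to 3 between the sexes in wild-type normal colon (6.36% to 17.1%). Between the sexes in wild-type tumours it ran from 0 to 1 (0.0738% to 0.717%). For the interaction of tumour and genotype it also ran from 0 to 1 (0% to 13%). That of tumour and sex had 0 to 2 (0.19% to 3.33%).

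Leaving out libraries changed the sign in 37 of 720 values, 0 of them past the threshold. For tumours against normal colon, Dkk3 in knock-in males ran from -0.31 to 0.46 and Sfrp5 in wild-type females from -0.58 to 0.37. Between genotypes in male normal colon, Rspo3 ran from -0.13 to 0.56, Dkk2 from -0.75 to 0.24, Dkk3 from -0.014 to 0.39 and Sfrp5 from -0.75 to 0.072. In female normal colon Rspo1 ran from -0.76 to 0.34 and Sfrp1 from -0.11 to 0.19. Between the sexes in wild-type tumours, Rspo3 ran from -0.57 to 0.54, Dkk3 from -0.38 to 0.12, Sfrp4 from -0.47 to 0.58 and Sfrp5 from -0.48 to 0.47. Rspo1 ran from -0.13 to 1.10 in wild-type normal colon, and in knock-in normal colon Rspo3 ran from -0.050 to 0.33, Sfrp4 from -0.013 to 0.82 and Sfrp5 from -0.086 to 0.58. Among the interactions, Rspo1 ran from -0.62 to 0.26 for tumour and genotype, Rspo3 from -0.13 to 0.98 for tumour and sex, and Sfrp1 from -0.34 to 0.047 and Sfrp4 from -1.04 to 0.063 for genotype and sex.

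Taking the promoter bases before the start site in place of the whole window changed no count of motif matches. Depth limits the low genes: Rspo2 was at or under the floor of 3 counts in 18 libraries, Rspo4 in 15, Rspo1 in 7, Sfrp4 in 5, Rspo3 in 2 and Sfrp5 in 1. In the shallowest library, wild-type male tumour replicate 2, that floor was 0.872 CPM.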
